A study of Mus musculus with 14 samples.

Results

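Pax3, Pax6, Pax7, Nkx2-2 and Sp8 encode transcription factors that give neural progenitors their regional identity, and their chromatin was described here through the ChIP-seq peaks of 5 genomic windows. The windows, in mouse build mm9, were chr1:78090000-78205000 for Pax3 (115 kb), chr2:105495000-105545000 for Pax6 (50 kb), chr4:139285000-139400000 for Pax7 (115 kb), chr2:146995000-147020000 for Nkx2-2 (25 kb) and chr12:120075000-120100000 for Sp8 (25 kb). Every deposited peak that overlapped a window by at least 1 bp was taken, which gave 332 peaks of the 557412 in all 12 lists. Of these, 94 lay in the Pax3 window, 110 at Pax6, 33 at Pax7, 69 at Nkx2-2 and 26 at Sp8. The 5 genes were chosen from the measured peaks of these same lists, so their values are a description and no test is given. No gene annotation of mm9 was used, and the gene of each window is named as the rule for choosing it gave it.

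The cultures were neural stem cells grown as neurospheres from mouse hindbrain at embryonic day 15.5. All carried Nestin-cre, which drives recombination in neural progenitors, and a lox-stop-lox allele that adds a tag to H3f3a, which encodes the replication-independent histone H3.3, on 1 of the 2 chromosomes. The full genotypes were Nestin-cre; H3f3aLSL-K27M-Tag/+ in 3 cultures (K27M-Tag) and Nestin-cre; H3f3aLSL-WT-Tag/+ in 3 cultures (WT-Tag), so Cre and a tagged histone were shared by both groups, and the other allele of H3f3a was untagged. Each culture gave 1 list of peaks for an antibody against FLAG, which marks the tagged histone, and 1 for H3K4me3. The cultures shared experiment numbers 1 to 3 between the genotypes, WT-Tag replicate 3 was male and the other 5 were female. No untagged culture was analysed here, so the FLAG background of such cells is unknown. The labels do not say whether cultures came from separate embryos, so the spread given below is that between cultures, and 3 cultures against 3 could not give an exact permutation p below 0.1.

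Patterning factors of this kind divide the neural tube into progenitor domains. Pax3 and Pax7 are paired-box factors of the dorsal progenitors, Pax6 is a paired-box and homeodomain factor of intermediate progenitors and of the hindbrain rhombic lip, Nkx2-2 is a homeodomain factor of the ventral domain next to the floor plate, and Sp8 is a zinc-finger factor best known from the forebrain, the isthmus and the limb bud. H3K4me3 marks promoters, mostly those rich in CpG dinucleotides, and often spreads over several kb at genes of cell identity. The K27M substitution removes the lysine on which Polycomb repressive complex 2 places methyl groups, and genes such as these are textbook Polycomb targets in cells that do not express them.

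Promoter sequences are shown because H3K4me3 forms on CpG-rich promoters and the genes differ in CpG content. They are the 250 bases before the gene start in RefSeq, 5′ to 3′, with each CpG in capitals (motif CG, which reads alike on both strands). RefSeq's table is of build GRCm38.p6 and the peaks are in mm9, so these sequences were not placed on the peaks. Of the 5 genes 4 had an entry, Pax3 had none, and where a gene had several the one with most CpG is shown.
Pax6 (chr2:105668646-105668895, plus strand of GRCm38.p6): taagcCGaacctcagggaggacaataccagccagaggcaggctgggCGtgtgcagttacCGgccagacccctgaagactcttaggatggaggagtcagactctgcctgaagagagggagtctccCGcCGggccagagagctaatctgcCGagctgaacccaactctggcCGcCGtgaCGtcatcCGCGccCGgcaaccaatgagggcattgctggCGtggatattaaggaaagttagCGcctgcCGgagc
Pax7 (chr4:139832969-139833218, minus strand of GRCm38.p6): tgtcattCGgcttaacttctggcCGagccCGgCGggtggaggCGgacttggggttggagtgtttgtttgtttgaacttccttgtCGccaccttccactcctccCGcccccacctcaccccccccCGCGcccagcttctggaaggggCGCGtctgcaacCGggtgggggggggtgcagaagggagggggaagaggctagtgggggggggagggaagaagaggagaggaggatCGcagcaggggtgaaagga
Nkx2-2 (chr2:147186403-147186652, minus strand of GRCm38.p6): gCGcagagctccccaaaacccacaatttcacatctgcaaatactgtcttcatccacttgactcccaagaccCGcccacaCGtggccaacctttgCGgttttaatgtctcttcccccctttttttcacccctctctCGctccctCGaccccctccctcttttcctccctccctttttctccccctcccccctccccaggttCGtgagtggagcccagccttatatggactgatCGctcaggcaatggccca
Sp8 (chr12:118846983-118847232, plus strand of GRCm38.p6): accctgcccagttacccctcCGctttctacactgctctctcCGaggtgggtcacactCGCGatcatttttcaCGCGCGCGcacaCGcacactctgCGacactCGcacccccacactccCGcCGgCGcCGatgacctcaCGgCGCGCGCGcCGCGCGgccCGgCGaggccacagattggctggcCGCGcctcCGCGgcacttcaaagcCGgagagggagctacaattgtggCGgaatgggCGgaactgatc
The Sp8 promoter held 32 CpG, and 4.58% of the 32851 promoters in the table held as many or more. The table held 2 other Sp8 entries, with 1 and 6 CpG, so this is the highest of 3. Those of Pax6, Pax7 and Nkx2-2 held 15, 13 and 8, against a median of 6 over all promoters, and 92.1% of all promoters held at least 1.

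Over the 5 windows together, H3K4me3 peaks covered somewhat more DNA in K27M-Tag and FLAG peaks much more. H3K4me3 covered 52917, 50124 and 49930 bp in K27M-Tag replicates 1 to 3 and 39297, 46406 and 43007 bp in WT-Tag replicates 1 to 3. The means were 50990 ± 1671 bp and 42903 ± 3556 bp (SD, n = 3 each), a ratio of 1.19 against 1.17 for the whole lists, and the cultures of the groups did not overlap. FLAG covered 16246, 10964 and 19960 bp in K27M-Tag and 4093, 6924 and 6303 bp in WT-Tag. The means were 15723 ± 4521 bp and 5773 ± 1488 bp (SD, n = 3 each), a ratio of 2.72 against 2.55 for the whole lists, again without overlap of the groups. Within experiments 1, 2 and 3, K27M-Tag exceeded WT-Tag by 13620, 3718 and 6923 bp for H3K4me3 and by 12153, 4040 and 13657 bp for FLAG. The sums hid unlike patterns at the 5 genes, which the map of peaks shows.

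**Figure D1:**
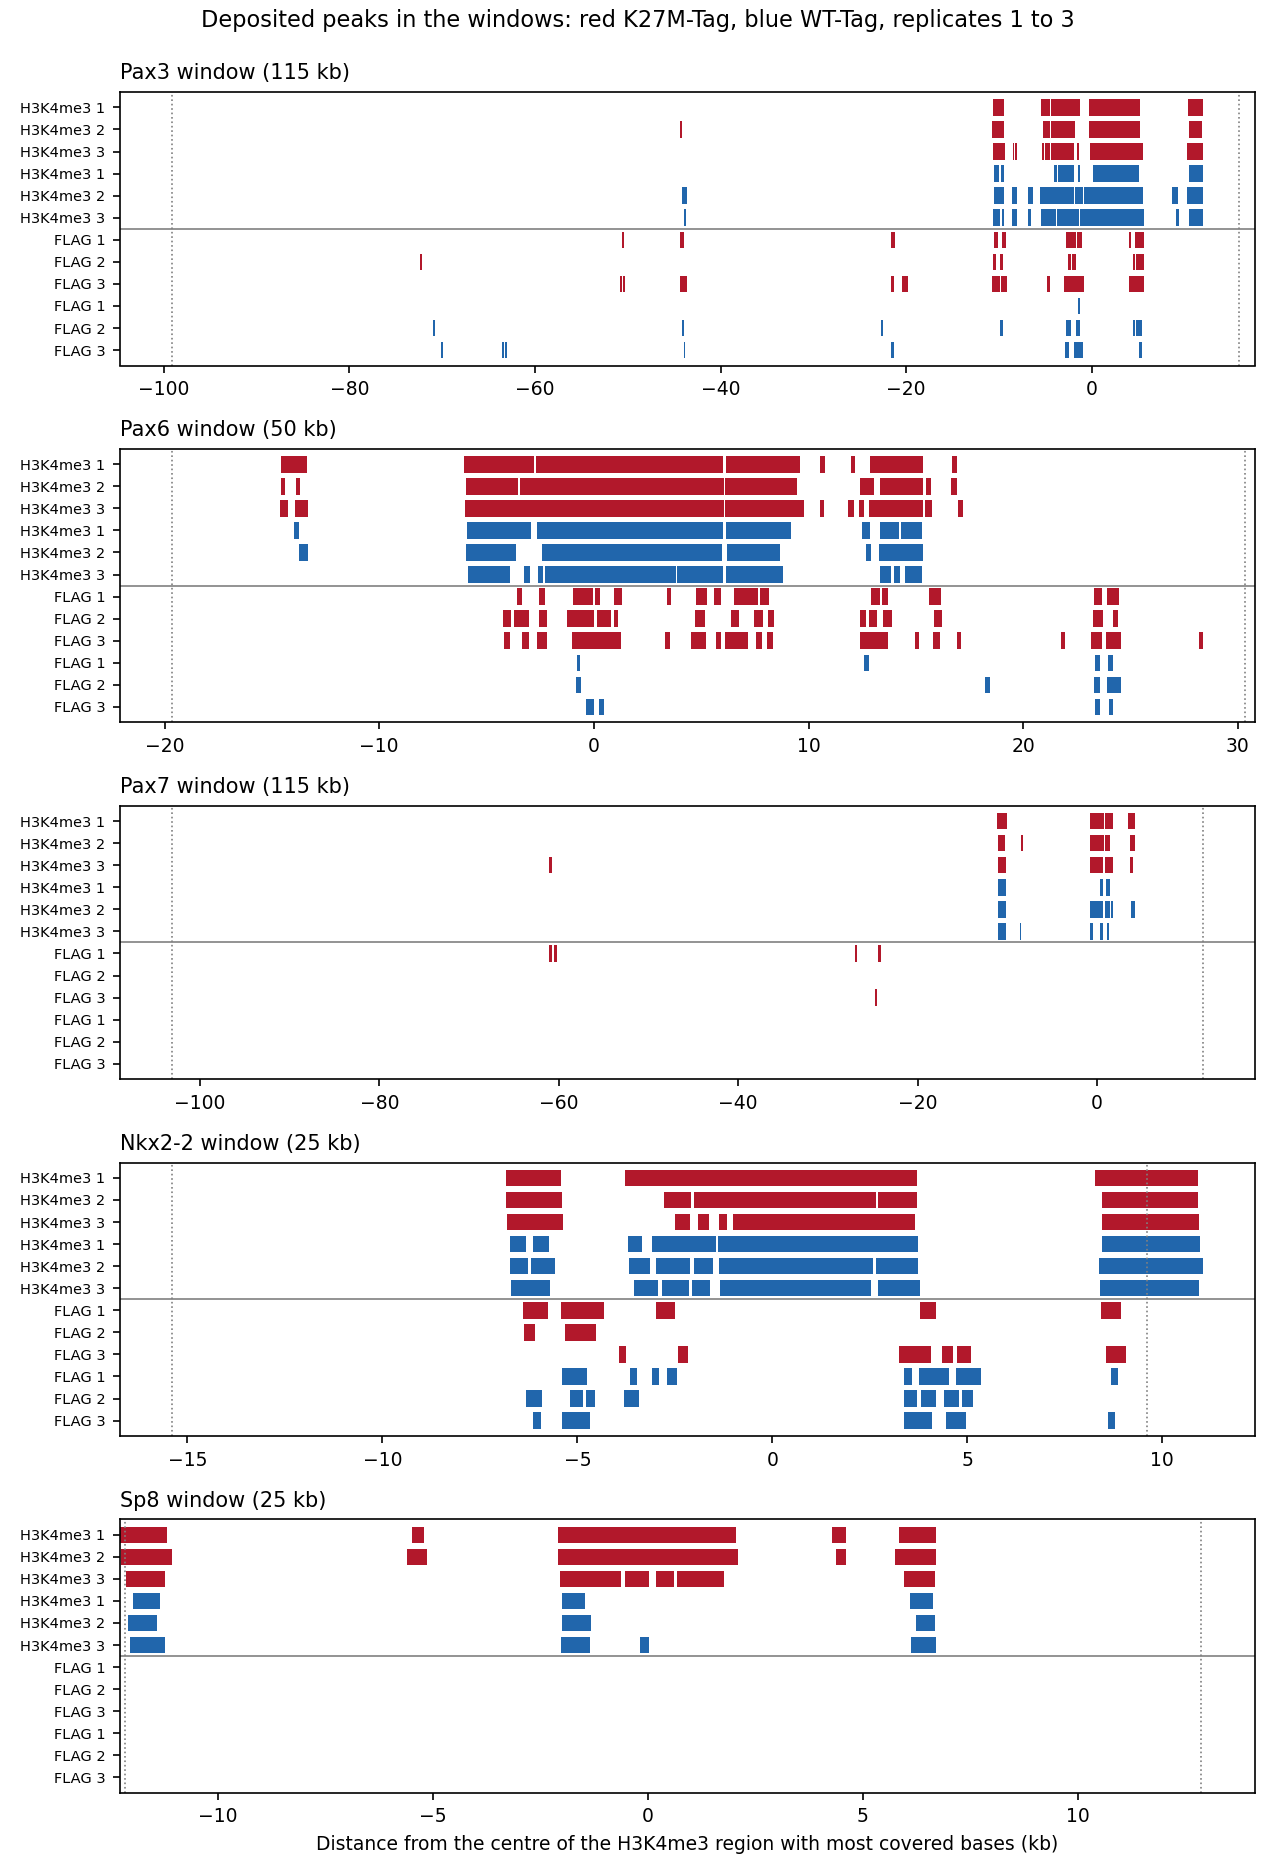
Peaks of the 12 lists in each window, drawn to scale; the horizontal axis is the distance in kb from the centre of the window's H3K4me3 region with most covered bases, each row is 1 list (red K27M-Tag, blue WT-Tag), and dotted lines are the window's edges. The central Sp8 region is long in the red rows and short in the blue rows with no FLAG peak in any list, while at Pax6 FLAG peaks are many in the red rows and few in the blue.

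The lists themselves differed between the genotypes, and this bears on every value below. H3K4me3 lists held 31932 to 38720 peaks and FLAG lists 32763 to 88285, with the more peaks in K27M-Tag for both antibodies. The background coverage recovered from the deposited fold and p was 2.77 to 3.60 fragments per base in all 12 libraries. The local background at the summit of a peak exceeded 1.5 times that coverage at 8.68% to 10.8% of H3K4me3 peaks in K27M-Tag and at 32.9% to 33.4% in WT-Tag. For FLAG peaks the order was the same, with 5.68% to 9.50% in K27M-Tag and 12.8% to 20.1% in WT-Tag. A higher local background lowers fold, score and called width. Its part in the differences between genotypes was not tested, and it is given beside the summit heights below. The control of each list is not given. If the 2 composite inputs were the controls, lists of a genotype share 1 control. The SD of local background would then not measure a spread between independent controls, and fold, score and called width would rest on that control too.

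Of the 5 genes, Sp8 had the largest ratio of H3K4me3 length between the genotypes. H3K4me3 covered 6584, 6906 and 5115 bp of the window in K27M-Tag and 1705, 1792 and 2277 bp in WT-Tag. The means were 6202 ± 955 bp and 1925 ± 308 bp (SD, n = 3 each), a ratio of 3.22, and the lowest K27M-Tag culture had more than 2 times the length of the highest WT-Tag culture. In experiments 1, 2 and 3 the difference was 4879, 5114 and 2838 bp. In bases the mean difference of 4277 bp was near that of Pax6, 3673 bp, and the order of the pair changed with the 50% of peaks of highest score, to 4932 bp against 5966 bp, and without K27M-Tag replicate 2 (3925 bp against 4071 bp) or WT-Tag replicate 1 (4167 bp against 4257 bp).

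Most of the Sp8 difference lay in the central region, chr12:120085053-120089243. It was covered over 4135, 4178 and 3493 bp in K27M-Tag and over 542, 680 and 893 bp in WT-Tag, a ratio of means of 5.58. Its highest summit stood between positions 120085314 and 120085511 in all 6 lists, near the lower end of the region. Most of the added length in K27M-Tag therefore lay on 1 side of the summit. On the other side the peaks began at 120085053, 120085066 and 120085102 in K27M-Tag and at 120085140, 120085147 and 120085121 in WT-Tag. The summit was also higher in K27M-Tag. Summit pileup was 22.8, 26.0 and 18.0 times the background coverage in K27M-Tag against 10.0, 15.5 and 16.4 times in WT-Tag. Local background at those summits was 1.00 times coverage in the 3 K27M-Tag lists and 1.000, 1.31 and 1.32 times in WT-Tag.

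The 2 other Sp8 regions found in all 6 lists were wider in K27M-Tag too, without overlap of the groups. The region at the window's lower edge had 1058 ± 137 bp against 703 ± 88.0 bp (SD, n = 3 each), and that near the upper end had 844 ± 119 bp against 516 ± 73.5 bp (SD, n = 3 each). The first of them began before the window in 2 lists and its length is that of the whole region. No FLAG peak lay in the Sp8 window in any of the 6 FLAG lists. The nearest FLAG peaks stood at least 174503 bp before the window and 181496 bp after it. The gene with the largest ratio in H3K4me3 length had no called FLAG peak in either genotype.

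By mean covered length, Pax6 had the widest H3K4me3 of the 5 genes in both genotypes and, in K27M-Tag, the most FLAG. Single WT-Tag cultures did not all keep that order for H3K4me3. WT-Tag replicate 3 had 14998 bp at Pax3 against 14859 bp at Pax6, and replicate 2 had 15904 against 15997 bp. In WT-Tag the mean FLAG length was 1111 bp at Pax6, below the 1955 bp of Pax3 and the 2708 bp of Nkx2-2. H3K4me3 covered 19760, 18889 and 20405 bp in K27M-Tag and 17178, 15997 and 14859 bp in WT-Tag, a ratio of means of 1.23 without overlap. The leading region, chr2:105508620-105520713, ranked 19th by mean covered length among the 42711 H3K4me3 regions of the 6 lists. It was covered over 11969, 11947 and 12030 bp in K27M-Tag and 11646, 10758 and 10654 bp in WT-Tag, a ratio of 1.09. Its breadth was therefore close in the genotypes while its summit was not. Fold enrichment at its highest summit was 62.7, 63.0 and 51.2 in K27M-Tag against 27.8, 30.3 and 31.0 in WT-Tag. Summit pileup over coverage differed less, 80.3 ± 10.6 against 59.8 ± 6.50 (SD, n = 3 each), and local background over coverage was 1.05 ± 0.0153 against 1.69 ± 0.121 (SD, n = 3 each). By score the summit stood at the 94.1, 90.8 and 91.2 percentile of its list in K27M-Tag and the 87.5, 77.1 and 82.7 percentile in WT-Tag.

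FLAG at Pax6 differed between the genotypes by more than the spread between cultures. The window held 15, 16 and 18 FLAG peaks in K27M-Tag and 4 in each WT-Tag list. They covered 6902, 7205 and 9827 bp in K27M-Tag and 852, 1391 and 1089 bp in WT-Tag, a ratio of means of 7.18. The difference of 6867 bp fell to 4024 bp at equal list sizes, with means of 4890 and 866 bp, and to 4413 bp with the 50% of peaks of highest score. The window held 17 FLAG regions, and 5 of them had a peak in each K27M-Tag list but in none of the WT-Tag lists. Such regions made up 9.89% of the 117816 FLAG regions genome-wide, and those of WT-Tag only made up 0.585%. The 5 windows held 43 FLAG regions, and the 5 of K27M-Tag only, all at Pax6, were near the genome-wide share. None of the 43 was found in WT-Tag only. At equal list sizes 2 regions of K27M-Tag only were left, and 2 when peaks were joined across 1000 bp. Leaving out a culture gave 5 to 9.

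Of these K27M-Tag-only regions 3 lay within the leading H3K4me3 region. The first, chr2:105510957-105511665, was covered over 222, 670 and 355 bp in K27M-Tag replicates 1 to 3. The next, chr2:105512009-105512503, had 272, 376 and 495 bp, and chr2:105519187-105519930 had 500, 465 and 704 bp. The widest, chr2:105520786-105523041, had 1551, 1029 and 1626 bp and lay on the H3K4me3 region that follows the leading one. The fifth, chr2:105530276-105530899, had 562, 378 and 329 bp, and its highest summit lay 236 to 629 bp from the nearest H3K4me3 peak of the same culture. Their best peaks ranged from the 12.1 to the 88.7 percentile of the scores of their lists.

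The Pax6 FLAG region with most covered bases, chr2:105513397-105515977, was in all 6 lists. It was covered over 1586, 2100 and 2288 bp in K27M-Tag and 176, 235 and 611 bp in WT-Tag, a ratio of means of 5.85. Summit pileup over coverage in it was 8.31 ± 1.49 against 5.88 ± 0.699 (SD, n = 3 each), and these ranges overlapped. Local background there was 1.00 times coverage in K27M-Tag and 1.26 ± 0.0432 times in WT-Tag (SD, n = 3), without overlap. Another FLAG region of the window, chosen after its values were seen, is chr2:105537845-105538362, with summits at least 6136 bp from the nearest H3K4me3 peak. It had 394, 458 and 493 bp in K27M-Tag and 231, 272 and 272 bp in WT-Tag, a ratio of 1.74, close to the ratio of 1.70 at the median FLAG region found in all 6 lists.

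FLAG peaks lay on a larger part of the H3K4me3 domain of Pax6 in K27M-Tag. The share of H3K4me3 bases under FLAG peaks of the same culture was 27.2%, 31.5% and 37.1% in K27M-Tag against 2.35%, 1.47% and 4.11% in WT-Tag. Whole lists of the K27M-Tag cultures gave shares of 30.1%, 22.8% and 33.7%. Pax6 was thus below its list in K27M-Tag replicate 1 and above it in replicates 2 and 3. For the WT-Tag cultures the whole lists gave 5.02%, 7.70% and 7.14%, and Pax6 was below its list in each. At Pax6 the difference of 29.3 percentage points between the genotypes was 19.1 at equal list sizes and 21.1 with the 50% of highest score. The highest H3K4me3 summit of the leading region was outside these FLAG peaks. It lay 758, 896 and 769 bp from the nearest FLAG peak in K27M-Tag and 2725, 2652 and 1512 bp in WT-Tag. That of chr2:105520780-105524472 lay 0, 144 and 0 bp away in K27M-Tag and 5871, 7637 and 6292 bp in WT-Tag. That of chr2:105527032-105530004 lay 407, 0 and 0 bp away in K27M-Tag and 2290, 4597 and 8246 bp in WT-Tag. A distance of 0 means under a FLAG peak. FLAG summits in the window lay inside H3K4me3 for 12 of 15, 13 of 16 and 12 of 18 peaks in K27M-Tag and for 2 of 4, 1 of 4 and 2 of 4 in WT-Tag. Over the whole lists 28.8% to 29.8% of FLAG summits did in K27M-Tag and 14.1% to 15.7% in WT-Tag. H3K4me3 covered 37.8% to 40.8% of the Pax6 window in K27M-Tag and 29.7% to 34.4% in WT-Tag. The counts of FLAG summits were not adjusted for this. In the other direction, 1 of 8, 1 of 9 and 4 of 10 H3K4me3 summits of the K27M-Tag cultures lay under FLAG.

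**Figure D2:**
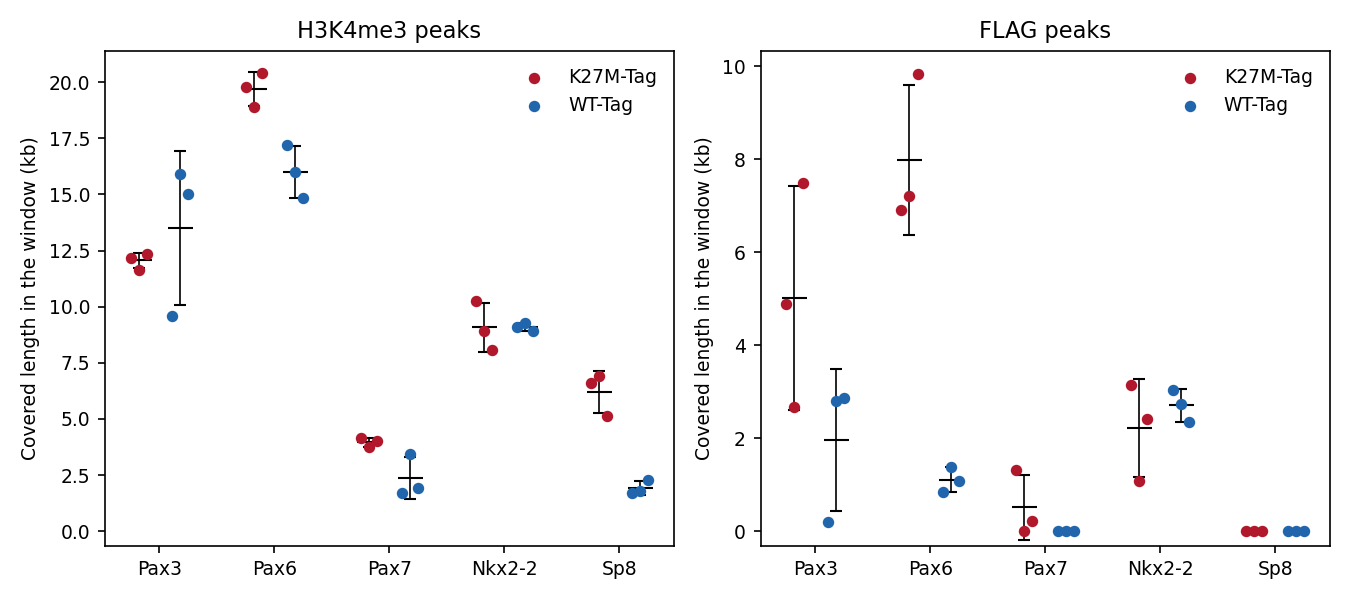
Covered length in kb of H3K4me3 peaks (left) and FLAG peaks (right) in each gene's window; each point is 1 culture, and the bar and whiskers are the mean and SD of 3 cultures. The 3 K27M-Tag cultures lie above the 3 WT-Tag cultures at Pax6, Pax7 and Sp8 for H3K4me3 and at Pax6 alone for FLAG.

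Pax3 carried a broad H3K4me3 domain in both genotypes, with no separation of the groups. H3K4me3 covered 12188, 11655 and 12326 bp in K27M-Tag and 9588, 15904 and 14998 bp in WT-Tag. The K27M-Tag cultures lay between WT-Tag replicate 1, which was lowest, and WT-Tag replicates 2 and 3, which were highest. The mean difference of -1440 bp was -3395 bp without WT-Tag replicate 1 and -237 bp without WT-Tag replicate 2. The leading region, chr1:78183496-78194778, ranked 44th by breadth and was covered over 9409, 8755 and 8935 bp in K27M-Tag and 7234, 10927 and 10922 bp in WT-Tag. Local background at its highest summit was higher in K27M-Tag, 2.02 ± 0.170 times coverage against 1.32 ± 0.223 (SD, n = 3 each), the opposite of the order seen over the whole lists. Another Pax3 region, chosen after its values were seen, showed the order of the whole lists. At chr1:78178415-78179787 fold was 17.8, 19.1 and 21.1 in K27M-Tag against 4.88, 8.94 and 7.42 in WT-Tag. Local background there was 1.00 times coverage in each K27M-Tag list and 2.12 ± 0.257 times in WT-Tag (SD, n = 3). Pileup over coverage at that summit was 25.1 ± 2.05 against 16.7 ± 3.60 (SD, n = 3 each), while the ratio of the mean folds was 2.73.

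FLAG at Pax3 was uneven between cultures. It covered 4874, 2678 and 7490 bp in K27M-Tag and 195, 2802 and 2867 bp in WT-Tag, and the groups overlapped. WT-Tag replicate 1 had 1 FLAG peak in the window against 7 to 11 in the other 5 lists. That library had the shortest FLAG list, 32763 peaks. Without it the WT-Tag mean was 2834 bp in place of 1955 bp, against 5014 bp in K27M-Tag. The difference of 3059 bp ranged from 1821 bp without K27M-Tag replicate 3 to 4227 bp without K27M-Tag replicate 2 when each culture was left out. The leading FLAG region, chr1:78186184-78188297, lay in the H3K4me3 domain and was found in all 6 lists, with 1613, 822 and 2114 bp in K27M-Tag and 195, 866 and 1352 bp in WT-Tag. The share of H3K4me3 bases under FLAG was 22.9%, 16.5% and 33.3% in K27M-Tag against 2.00%, 14.4% and 11.7% in WT-Tag, without overlap of the groups, though the lowest K27M-Tag and highest WT-Tag culture were 2.10 percentage points apart.

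Pax7, the other dorsal paired-box gene, had short H3K4me3 regions and almost no FLAG. H3K4me3 covered 4147, 3742 and 4000 bp in K27M-Tag and 1722, 3431 and 1945 bp in WT-Tag, a ratio of means of 1.67. The groups did not overlap, but WT-Tag replicate 2 was close to the K27M-Tag cultures, 311 bp below K27M-Tag replicate 2. The leading region, chr4:139387393-139388931, had 1501, 1516 and 1473 bp in K27M-Tag and 353, 1478 and 623 bp in WT-Tag. Those ranges overlapped through WT-Tag replicate 2. Summit pileup over coverage in it was 14.8 ± 3.39 in K27M-Tag and 8.93 ± 2.46 in WT-Tag (SD, n = 3 each), without overlap. Local background there was 1.00 times coverage in K27M-Tag and 1.24 ± 0.125 times in WT-Tag (SD, n = 3). All Pax7 peaks were in the lower or middle part of the H3K4me3 lists, and the best stood at the 51.3 to 57.0 percentile in K27M-Tag and the 36.6 to 45.3 percentile in WT-Tag.

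FLAG peaks in the Pax7 window were found in 2 of the 6 lists. K27M-Tag replicate 1 had 4, over 1318 bp, and K27M-Tag replicate 3 had 1, over 221 bp. Each of the 5 was found in a single list. The one with most bases, chr4:139363698-139364090, had 393 bp in K27M-Tag replicate 1 alone. The mean difference was 513 bp, 110 bp without K27M-Tag replicate 1 and 0 at equal list sizes, where no list had a FLAG peak in the window. No base was shared between FLAG and H3K4me3 peaks at Pax7 in any culture.

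At Nkx2-2 neither antibody covered more DNA in K27M-Tag on average. H3K4me3 covered 10238, 8932 and 8084 bp in K27M-Tag and 9104, 9282 and 8928 bp in WT-Tag, a ratio of means of 0.998. The leading region, chr2:147006614-147014191, ranked 121st by breadth, with 7500, 6366 and 5510 bp in K27M-Tag and 7139, 6955 and 6717 bp in WT-Tag. Its summit pileup over coverage was 58.8 ± 11.6 and 62.7 ± 6.23 (SD, n = 3 each), with local background of 1.33 ± 0.182 and 1.36 ± 0.382 times coverage (SD, n = 3 each). Within the lists the summit ranked lower in K27M-Tag, at the 77.9, 73.4 and 71.0 percentile against the 95.0, 91.3 and 79.5 percentile. The third H3K4me3 region ran past the window's upper edge, and the sums hold only the part inside.

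The equal sums at Nkx2-2 joined regions that behaved unlike each other. The first region, chr2:147003578-147005025, chosen after its values were seen, had 1403, 1430 and 1436 bp in K27M-Tag and 818, 1094 and 1009 bp in WT-Tag. Its summit pileup was 33.0, 38.2 and 32.3 times coverage in K27M-Tag against 11.1, 14.2 and 13.0 times in WT-Tag. The ratio of means was 2.71, the largest among the 15 H3K4me3 regions of the windows found in all 6 lists, and ratios of 2 or more were found at 1.05% of such regions genome-wide. Local background at these summits was 1.60, 1.54 and 1.26 times coverage in K27M-Tag against 1.76, 1.53 and 1.76 times in WT-Tag, and those ranges overlapped.

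FLAG at Nkx2-2 covered 3152, 1081 and 2422 bp in K27M-Tag and 3046, 2731 and 2347 bp in WT-Tag. The window held 5, 2 and 6 FLAG peaks in K27M-Tag against 8, 8 and 5 in WT-Tag, while the whole FLAG lists held 1.77 times as many peaks in K27M-Tag. The leading FLAG region, chr2:147013659-147015744, had 405, 0 and 1445 bp in K27M-Tag and 1601, 1378 and 1236 bp in WT-Tag. It began inside the leading H3K4me3 region and extended beyond its end. The best FLAG peak of the window stood at the 73.3, 53.9 and 69.9 percentile of its list in K27M-Tag and the 93.0, 89.0 and 90.8 percentile in WT-Tag, without overlap. Its pileup over coverage was 6.44 ± 0.664 in K27M-Tag and 7.51 ± 0.265 in WT-Tag (SD, n = 3 each), also without overlap. Local background at those peaks was 1.02 ± 0.0346 times coverage in K27M-Tag and 1.00 times in WT-Tag (SD, n = 3). These peaks were picked by the deposited −log10 p and lay at different places in different lists. By pileup alone the groups overlapped. K27M-Tag replicate 1 had another peak, chr2:147004015-147004646, at 8.23 times coverage, above the 7.77, 7.24 and 7.51 times of the WT-Tag best peaks. The FLAG length differed by -490 bp on average, by -1280 bp at equal list sizes and by 79.0 bp without K27M-Tag replicate 2. The share of H3K4me3 bases under FLAG was 16.1%, 3.29% and 14.5% against 10.7%, 10.1% and 9.15%.

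**Figure D3:**
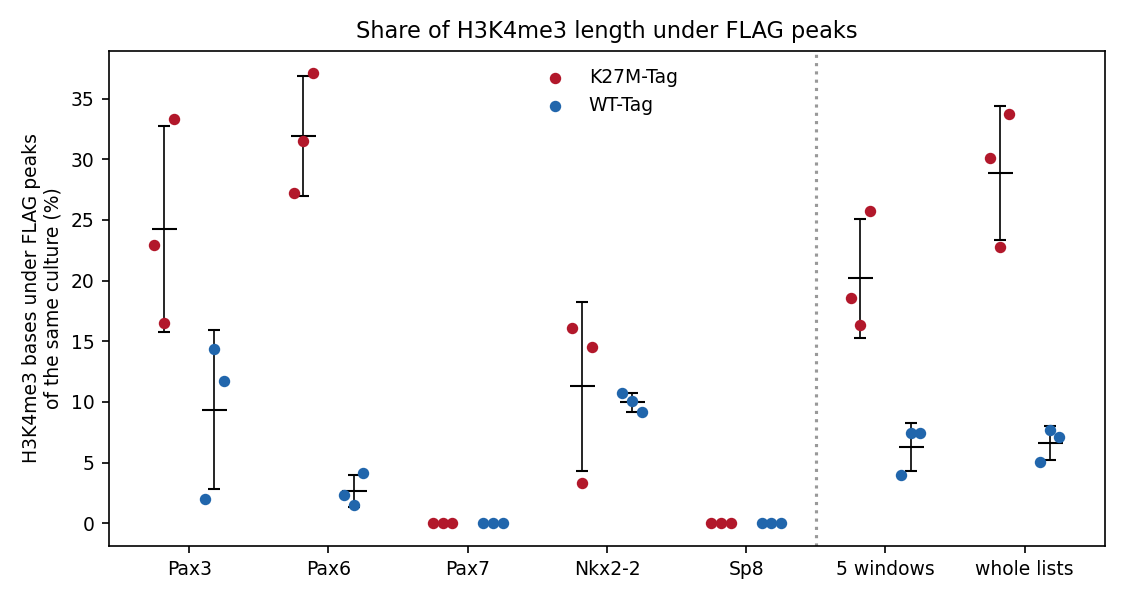
Percent of H3K4me3 bases under FLAG peaks of the same culture in each window, in the 5 windows together and in the whole lists; each point is 1 culture, and the bar and whiskers are the mean and SD of 3 cultures. K27M-Tag lies highest above WT-Tag at Pax6, the groups mix at Nkx2-2, and Pax7 and Sp8 are at 0 in all cultures.

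Set side by side, the genes fell into those with FLAG on H3K4me3 and those without. Over the 5 windows the share of H3K4me3 bases under FLAG was 18.6%, 16.3% and 25.7% in K27M-Tag against 4.00%, 7.46% and 7.42% in WT-Tag. Over the whole lists it was 28.9% ± 5.55 and 6.62% ± 1.41 (SD, n = 3 each), so the windows lay below the whole lists in each K27M-Tag culture. Of the FLAG bases, 66.5% ± 7.23 in K27M-Tag and 46.3% ± 6.88 in WT-Tag lay on H3K4me3 in the windows, against 30.4% ± 0.153 and 15.3% ± 0.961 in the whole lists (SD, n = 3 each). H3K4me3 peaks that touched a FLAG peak made up 36.4% ± 6.16 and 25.7% ± 5.60 in the windows and 53.9% ± 6.73 and 21.9% ± 3.44 in the whole lists (SD, n = 3 each). H3K4me3 summits lay under FLAG in the windows for 4 of 26, 1 of 30 and 9 of 38 peaks in K27M-Tag replicates 1 to 3. In WT-Tag they did for 3 of 27, 4 of 32 and 2 of 35. Over all peaks of the lists the share was 28.9% to 42.6% in K27M-Tag, above that of the windows. In WT-Tag it was 9.98% to 13.9%, near the 9 of 94 of the 3 cultures together.

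Merged over the 6 lists, the windows held 31 H3K4me3 regions, of which 15 were in all 6 lists, 3 in each window. Genome-wide 52.9% of H3K4me3 regions were in all 6 lists. Of the 15, 8 were wider in K27M-Tag without overlap of the cultures (3 at Pax6, 3 at Sp8, 1 at Pax3 and 1 at Nkx2-2), 0 were narrower and 7 overlapped. The shares genome-wide were 37.9% wider and 2.06% narrower. With the 50% of peaks of highest score 1 region was wider without overlap, and without K27M-Tag replicate 1 there were 2 narrower ones, and without WT-Tag replicate 1 there was 1. No H3K4me3 region of the windows was found in all 3 lists of 1 genotype alone, where such regions made up 4.36% for K27M-Tag and 0.260% for WT-Tag genome-wide. The median ratio of covered length was 1.27 over the 15 regions and 1.10 over all 22592 regions in all 6 lists, and the central Sp8 region was the only one of the 15 past a ratio of 2, which 2.31% of all such regions passed.

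Summits gave the same count, and 7 of the 8 regions were those that were wider. The eighth was the leading Pax7 region in place of the Sp8 region at the window's lower edge. Summit pileup over coverage was higher in K27M-Tag without overlap at 8 of the 15 regions, lower at 0 and overlapping at 7. Genome-wide 33.3% were higher and 1.02% lower. The median ratio was 1.37 over the 15 and 1.25 over all. Sp8 and Nkx2-2 held the extremes on different axes, as the central Sp8 region had a breadth ratio of 5.58 with a summit ratio of 1.59 and the first Nkx2-2 region had 1.46 and 2.71.

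**Figure D4:**
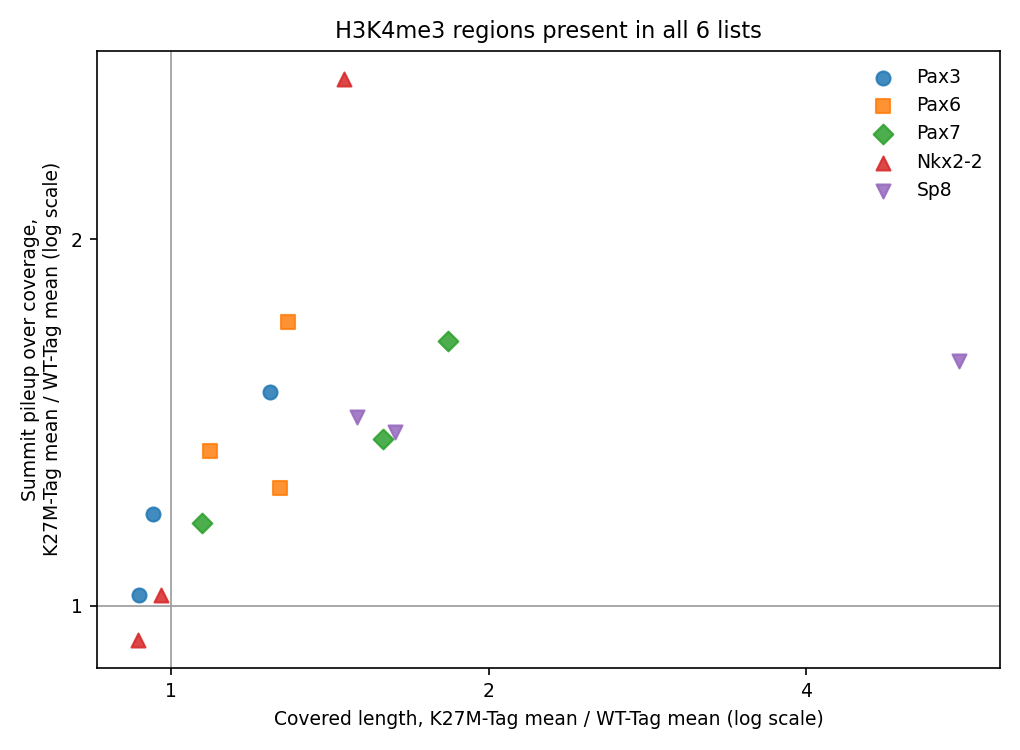
Each point is 1 of the 15 H3K4me3 regions found in all 6 lists; the horizontal axis is the ratio of mean covered length and the vertical axis the ratio of mean summit pileup over coverage, K27M-Tag over WT-Tag, both on log scales with lines at 1. The central Sp8 region is at the far right (5.58) and the first Nkx2-2 region at the top (2.71).

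Among the H3K4me3 regions in all 6 lists, FLAG peaks overlapped those of Pax3, Pax6 and Nkx2-2. Of these 15 regions, 7 had no FLAG peak in any list: all 3 of Sp8, all 3 of Pax7 and 1 of Pax3. The share genome-wide was 31.7%. FLAG peaks of all K27M-Tag cultures but of no WT-Tag culture were found at 1 of the 15, at Pax6, against 16.5% genome-wide, and 2 of the 15, the leading regions of Pax3 and Pax6, had FLAG in all 6 lists. Of the 43 FLAG regions 4 were in all 6 lists, 3 at Pax6 and 1 at Pax3, where the share genome-wide was 10.2%. Of those 4, 2 were wider in K27M-Tag without overlap, both at Pax6, 0 were narrower and 2 overlapped, and the shares genome-wide were 58.1% and 1.48%. Peaks seen in 1 list alone made up 19 of the 43 FLAG regions, 8 of them at Pax3, 5 at Pax6, 5 at Pax7 and 1 at Nkx2-2, where the share genome-wide was 42.6%.

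The windows were set apart from other peaks by position, not by a value. The nearest H3K4me3 peaks outside them lay 7269 to 7361 bp after the Pax3 window and 10250 to 10430 bp after the Pax6 window. Before and after the other windows, and before those 2, the nearest H3K4me3 peak was at least 24730 bp away. By the GRCm38 gene table, which was used for names and order alone, Pax6 overlaps Elp4 and Pax6os1 and Nkx2-2 overlaps Nkx2-2os and 6430503K07Rik, and Pax7 overlaps Gm46873. Peaks in those windows could belong to any of these genes, and this was not resolved.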

How the data were processed

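Peaks of 12 ChIP-seq libraries of 6 neurosphere cultures were analysed, with groups and replicate numbers from the labels, and the 2 composite inputs were not analysed here. The genes, windows and lists were chosen with earlier results of these data known. BWA 0.7.17-r1188, MACS2 2.2.7.1, bedtools 2.29.2 and the builds mm9 and dm6 are named in the submitters' processing notes, without roles. The control, the settings and the threshold are not given in the sources used here. If the composite inputs were the controls, lists of a genotype share 1 control. Drosophila chromatin was added before H3K4me3 immunoprecipitation, per the labels' protocols, and no value here is scaled by it.

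Each list, made per library by the authors, has 10 columns in narrowPeak order. Percentiles are of the deposited score within a list (100 is the highest), so they also depend on the other peaks of that list. The best peak of a window and the highest summit of a region are those with the largest deposited −log10 p. They need not have the largest pileup. The deposited fold is a ratio over local background at the summit. The −log10 p-value and −log10 q-value columns are as the authors deposited them. A whole pileup and a background were recovered that give both fold (pileup plus 1 over background plus 1) and p (Poisson tail) within a relative error of 0.0001, which succeeded for 100.0% of peaks, and a list's most common background was its coverage. This rests on the values, not on a stated method.

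Computed with Python 3.11.15 and numpy 2.4.6 were covered bases clipped to a window, bases shared with the other antibody of the same culture, and regions merged over the 6 lists of an antibody where peaks overlapped. The merging and classing of regions, the shared bases and the recovery of pileups were tested on simulated lists, and the other steps were not. Named by rule were the region with most covered bases per window and antibody, regions of 1 genotype only, and regions in all 6 lists with ranges apart and means differing at least 2-fold. Other regions are given as chosen after their values were seen, or by counts. Depth enters through the list length and coverage, and counts of reads are not known. Also tried were the best-scoring 50% of peaks, equal list sizes (32763 FLAG and 31932 H3K4me3 peaks), a common −log10 p limit (4.22 and 3.89), whole peaks by summit, joining across 1000 bp, an overlap of 50%, and leaving out each culture. No other genes of the pathway were looked up, since no mm9 annotation was used.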

Additional observations from a re-analysis of the deposited data

How the results depend on the processing

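Differences below are K27M-Tag minus WT-Tag. No paired analysis was possible because the results come from no test, so no fit could carry the experiment number as a block, and the differences within experiments 1 to 3 stand beside the results as values. Covered length over the 5 windows differed by 8087 bp for H3K4me3 and 9950 bp for FLAG, and the share of H3K4me3 bases under FLAG by 13.9 percentage points. With the 50% of peaks of highest score the differences were 15209 bp for H3K4me3 and 6556 bp for FLAG. At equal list sizes they were 4976 bp for FLAG and 8.83 points for the share. Leaving out a culture gave 6284 to 9838 bp, 7832 to 12330 bp and 11.1 to 15.9 points. The common p limit left out no peak of the windows. Among regions, those of H3K4me3 wider in K27M-Tag went from 8 to 1 and those of K27M-Tag only from 0 to 4 with the 50% of highest score. The FLAG regions of K27M-Tag only went from 5 to 2 at equal list sizes and to 2 when joined across 1000 bp. The FLAG regions wider in K27M-Tag went from 2 to 0 with the 50% of highest score, to 0 at equal list sizes and to 1 when joined across 1000 bp. Leaving out a culture gave 8 to 10 wider H3K4me3 regions, 0 to 2 narrower, 0 to 3 of K27M-Tag only, 5 to 9 FLAG regions of K27M-Tag only and 2 to 3 wider ones. The cause was not tested, other than that fewer lists must agree when a culture is left out. Single genes reversed at Pax3 and Nkx2-2. With the 50% of highest score the H3K4me3 difference was 622 bp in place of -1440 bp at Pax3 and 2001 bp in place of -20.0 bp at Nkx2-2. At Nkx2-2 it was 56.3 bp and 480 bp without K27M-Tag replicates 2 and 3 and 68.7 bp without WT-Tag replicate 2. Leaving out a culture gave -597 to 480 bp there for H3K4me3. FLAG there was 79.0 bp without K27M-Tag replicate 2 in place of -490 bp, with a range of -956 to 79.0 bp, and -1280 bp at equal list sizes. The share there was 1.30 points, and was -4.56 at equal list sizes, -1.30 with whole peaks by summit, and -1.11 and -0.292 without K27M-Tag replicates 1 and 3, in a range of -1.11 to 5.30. Pax6, Pax7 and Sp8 kept the direction of their H3K4me3 difference under each alternative run.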
